A study of Mus musculus with 6 samples.

Results

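Brush border peptidases are enzymes anchored in the apical membrane of enterocytes, the absorptive cells of the gut. The 9 genes described here were listed by name for that place and function, with earlier results of these arrays known. They are Anpep, Enpep, Dpp4, Xpnpep2, Mme, Ace, Mep1a, Mep1b and Tmprss15. All 9 were measured among 19938 genes, each by 1 probe set (the group of probes that reads a gene), and none was left out for a low value. The data come from 6 whole-transcript arrays of RNA from isolated small intestinal epithelial cells of mouse embryos at E18.5 (E for embryonic day). Of these, 3 arrays are labelled control and 3 are labelled Gata4Gata6 cKO, a double conditional knockout of the genes for the zinc finger transcription factors GATA4 and GATA6. The sources used here give neither the alleles, the Cre driver and the genotype of the controls nor any pooling of embryos. Nothing in the labels ties the arrays of a group to separate animals, so each p-value rests on array-to-array spread that may be technical.

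Protein that leaves the stomach is cut into peptides by pancreatic proteases in the gut lumen, and enteropeptidase on the enterocyte surface starts this by activating trypsinogen. Surface aminopeptidases, dipeptidases and endopeptidases then shorten the peptides, and transporters carry free amino acids and small peptides into the cell. Several of the same enzymes also act on peptide hormones: neprilysin degrades many of them, angiotensin-converting enzyme makes angiotensin II, and dipeptidyl peptidase 4 inactivates the incretins.

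Levels are log2 values, so a step of 1 is a doubling, and a change is the mean of the arrays labelled cKO minus the mean of the control arrays with its standard error (SE), n = 3 in each group. The targeted genes did not bear out the labels. Gata4 stood at 10.95 ± 0.0153 (SD) on the control arrays and 11.41 ± 0.0874 on those labelled cKO, and Gata6 at 12.26 ± 0.0265 and 12.71 ± 0.0173. Both were higher on the arrays labelled cKO (limma adjusted p = 0.0101 and 0.0067), although the call of each was lost without control 3 and cKO 2 (adjusted p = 0.0646 and 0.0503). Their probe sets may include parts of the genes outside a deletion. This was not examined, so it is not known whether they can check one. The directions given here are those of the labels. Of 10 general epithelial genes 3 rose (Krt19, Epcam and Krt8) and 0 fell, and their mean level was 11.94 to 12.22 on the 6 arrays. Hepatocyte genes were highest on cKO 2, where 8 of them averaged 13.09. Control 3 (11.68) and control 1 (10.40) came next, and the remaining arrays lay at 8.81 to 9.09. On cKO 2 also, 5 erythroid genes averaged 11.43 against 7.95 to 9.59 on the other 5 arrays.

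The 250 bases upstream of the start sites are shown for 4 of these genes, since the study concerns GATA factors and these 4 cover a fall, a rise and 2 genes that did not pass. The motif searched was a GATA motif in any of 4 spellings, namely AGATAA or AGATAG with a first A, and TGATAA or TGATAG with a first T, on both strands, with overlapping matches counted. The sequences run 5′ to 3′ on the strand of the gene, from the RefSeq promoter table of build GRCm38.p6, and capitals mark a match on either strand. They cover chr3:63294961-63295210 (plus strand) for the first of 3 Mme start sites, chr17:43502774-43503023 (minus strand) for Mep1a, chr2:62412232-62412481 (minus strand) for Dpp4 and chrX:48108475-48108724 (plus strand) for Xpnpep2.
Mme: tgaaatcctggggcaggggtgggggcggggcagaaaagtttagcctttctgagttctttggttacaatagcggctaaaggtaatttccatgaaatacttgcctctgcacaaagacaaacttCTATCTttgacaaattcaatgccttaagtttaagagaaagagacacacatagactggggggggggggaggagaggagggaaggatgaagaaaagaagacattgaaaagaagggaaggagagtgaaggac
Mep1a: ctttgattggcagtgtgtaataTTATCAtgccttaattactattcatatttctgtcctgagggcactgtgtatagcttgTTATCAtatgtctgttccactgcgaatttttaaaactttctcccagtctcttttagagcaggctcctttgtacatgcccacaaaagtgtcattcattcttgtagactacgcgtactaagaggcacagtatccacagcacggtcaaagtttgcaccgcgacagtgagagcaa
Dpp4: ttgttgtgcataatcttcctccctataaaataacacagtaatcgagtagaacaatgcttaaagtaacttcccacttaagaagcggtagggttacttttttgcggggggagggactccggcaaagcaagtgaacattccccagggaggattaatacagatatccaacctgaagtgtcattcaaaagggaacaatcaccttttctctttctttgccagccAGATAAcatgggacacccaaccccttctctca
Xpnpep2: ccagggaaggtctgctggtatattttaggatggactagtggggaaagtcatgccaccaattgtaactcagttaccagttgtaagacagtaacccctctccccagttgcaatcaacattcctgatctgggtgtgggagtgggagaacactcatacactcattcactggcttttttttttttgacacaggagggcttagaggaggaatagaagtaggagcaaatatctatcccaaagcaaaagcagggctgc
Windows were read for 8 of the 9 genes (all but Mep1b), and 4 of these 8 (50%) held a match, against 29.7% of 27025 genes with a window. Counted by window, since a gene can have several, 4 of 11 (36.4%) held a match, against 26.5% of 32851 windows. Mep1a held 2 matches, which start 228 and 171 bases before the start site, and Mme, Dpp4 and Tmprss15 held 1 each, at 129, 32 and 214 bases. The Mme match lay at the first start site, and the windows of its other start sites held none. No match lay in the windows of Anpep, Enpep, Ace or Xpnpep2. Of the 4 genes with a window that fell, 1 held a match (Mme), and all 3 that did not pass the test held one. A match is a description of letters and does not show binding.

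The 9 peptidase genes did not move as a block. On the arrays labelled cKO 5 fell (Ace, Mme, Mep1b, Anpep and Enpep), 1 rose (Xpnpep2) and 3 did not pass the test (Dpp4, Mep1a and Tmprss15), at an adjusted p of limma under 0.05. Over all genes tested 12.9% passed, 5.52% higher and 7.42% lower. The median change of the 9 genes was −0.99, against −0.013 over all genes. The control and cKO arrays did not overlap for 6 of the 9, the same 6 that passed, where 32.6% of all genes had groups that did not overlap. With 1 array left out the counts over all genes were 629 to 959 higher and 844 to 1322 lower, against 1101 and 1479 with all arrays, and without control 3 and cKO 2 they were 708 and 878. Among the 9 genes the count of falls was 3 without any 1 control array, without cKO 3, and without control 3 and cKO 2 together. The genes lost were Enpep and Mep1b in each of these cases, and without cKO 2 Enpep alone was lost, while Ace, Mme, Anpep and Xpnpep2 passed under all 17 alternatives. In whole-epithelium RNA, fewer enterocytes and less RNA in each enterocyte cannot be told apart. Vil1, the villin gene of the microvillus core, changed by −0.11 ± 0.0956 (adjusted p = 0.529). Of 10 enterocyte genes 8 fell, and the median change of the list was −0.76. Its largest falls were those of Lct, the lactase gene (−4.54 ± 0.445), and Fabp2, an intestinal fatty acid binding protein gene (−2.73 ± 0.268).

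**Figure D1:**
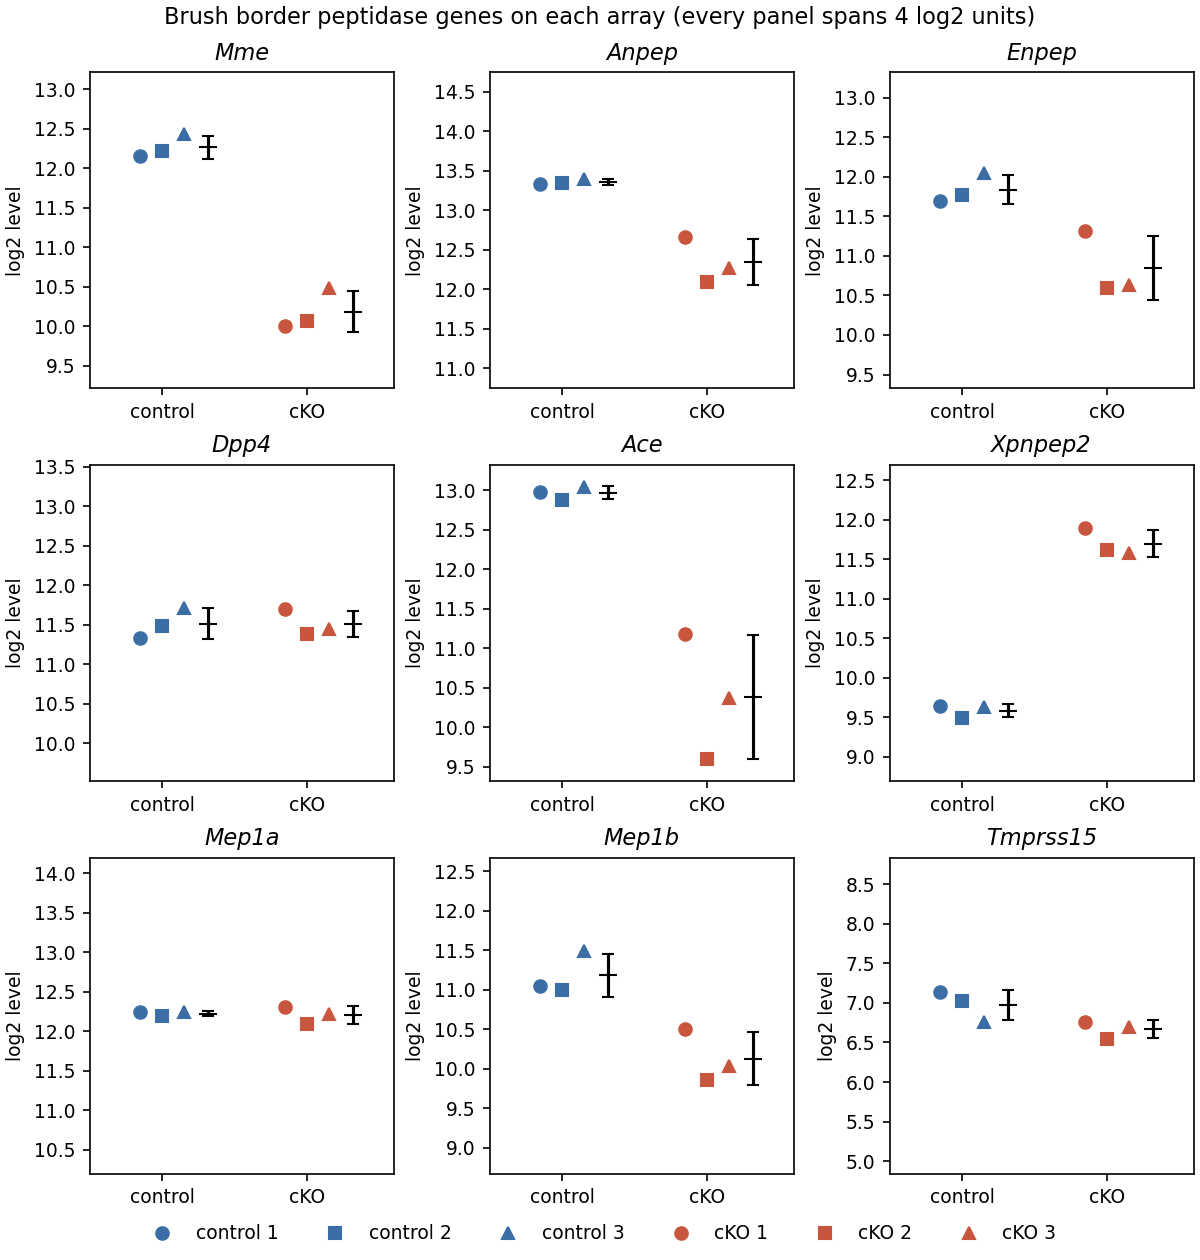
Log2 level (y axis) of each of the 9 peptidase genes on the 3 control arrays and the 3 arrays labelled cKO, 1 symbol per array, with the group mean and SD (n = 3) as a black bar. Every panel spans 4 log2 units: Mme and Ace lie lower and Xpnpep2 higher on all arrays labelled cKO, while the groups overlap for Dpp4 and Mep1a and touch for Tmprss15.

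Ace and Mme, both genes of zinc peptidases that act on peptide hormones, had the largest falls of the 9 genes. Ace encodes angiotensin-converting enzyme, a dipeptidyl carboxypeptidase. Its levels were 12.98, 12.88 and 13.04 on control arrays 1 to 3, and 11.18, 9.60 and 10.37 on cKO arrays 1 to 3. The controls lay within 0.16 of each other and the arrays labelled cKO were spread over 1.58, all of them below every control. The change was −2.58 ± 0.367 (5.99-fold lower, adjusted p = 0.00644), which is rank 33 among falls of all 19938 genes. The SD of 0.79 on the arrays labelled cKO exceeded that of 97% of all genes on the same 3 arrays. Without cKO 1, the highest of the 3, the change was −2.98, and without cKO 2 it was −2.19. ACE is also a protein of blood vessel endothelium. None of 10 endothelial genes passed, and their mean level was highest on cKO 2 (8.62, against 7.03 to 8.07 on the other arrays), the array with the lowest Ace level; the part of endothelial cells in the Ace levels was not tested.

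Mme encodes neprilysin, an endopeptidase that degrades tachykinins and many other small peptides. Its levels were 12.15, 12.22 and 12.43 on the control arrays and 10.00, 10.07 and 10.48 on the arrays labelled cKO. The groups were far apart compared with the spread in either. The change was −2.08 ± 0.149 (4.24-fold lower, adjusted p = 0.000568), with a 95% interval of −2.44 to −1.72 and rank 67 among falls. With 1 array left out the change ran from −2.23 to −1.99. The difference between the changes of Mme and Ace was 0.50 ± 0.505, which could not be told from the spread between arrays (exact permutation test, two-sided, p = 0.40, adjusted p = 0.53 over 4 pairs). This difference was 0.99 without cKO 1 and 0.17 without cKO 2.

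Anpep and Enpep, aminopeptidase genes of the same family, each fell by about 1 log2 unit. Anpep encodes aminopeptidase N, which removes neutral amino acids from the ends of peptides and is among the most abundant proteins of the brush border. Its levels were 13.33, 13.34 and 13.40 on the control arrays and 12.66, 12.09 and 12.27 on the arrays labelled cKO. The controls were nearly identical, and all arrays labelled cKO were lower. The change was −1.02 ± 0.148 (2.02-fold lower, adjusted p = 0.00704). Enpep encodes aminopeptidase A, which removes acidic amino acids and cleaves angiotensin II. It stood at 11.70, 11.77 and 12.05 on the control arrays and at 11.32, 10.60 and 10.63 on the arrays labelled cKO, so that cKO 1 lay nearer to control 1 than to the other arrays of its group. The change was −0.99 ± 0.213 (adjusted p = 0.0294), a call that remained without cKO 1 (−1.23) and was lost on leaving out any other array (adjusted p up to 0.105). The difference between the changes of Anpep and Enpep was −0.03 ± 0.121 (exact permutation test, two-sided, p = 0.90, adjusted p = 0.90), and −0.11 to 0.05 with 1 array left out.

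The peptidases that act next to proline parted. Dpp4 encodes dipeptidyl peptidase 4, which removes dipeptides that end in proline or alanine, and Xpnpep2 encodes a membrane-bound aminopeptidase P, which cuts the bond before a proline. Xpnpep2 was the only one of the 9 genes that rose. Its levels were 9.64, 9.49 and 9.63 on the control arrays and 11.90, 11.62 and 11.58 on the arrays labelled cKO. Both groups were tight, and the lowest array labelled cKO lay far above the highest control. The change was 2.11 ± 0.108 (4.33-fold higher, adjusted p = 0.000206; 2.01 to 2.17 with 1 array left out), rank 53 among rises of all genes. Dpp4 stood at 11.33, 11.49 and 11.72 on the control arrays and at 11.70, 11.38 and 11.45 on the arrays labelled cKO. The groups covered the same range. The change was −0.003 ± 0.133 (adjusted p = 0.991), with a 95% interval of −0.32 to 0.32, which leaves room for a change of that size in either direction. Within arrays Dpp4 minus Xpnpep2 was 1.69 to 2.09 on the controls and −0.24 to −0.13 on the arrays labelled cKO, a difference of −2.12 ± 0.125 (exact permutation test, two-sided, p = 0.10, adjusted p = 0.20). With 3 arrays against 3 there are 20 splits, and 0.10 is the smallest p they can give.

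**Figure D2:**
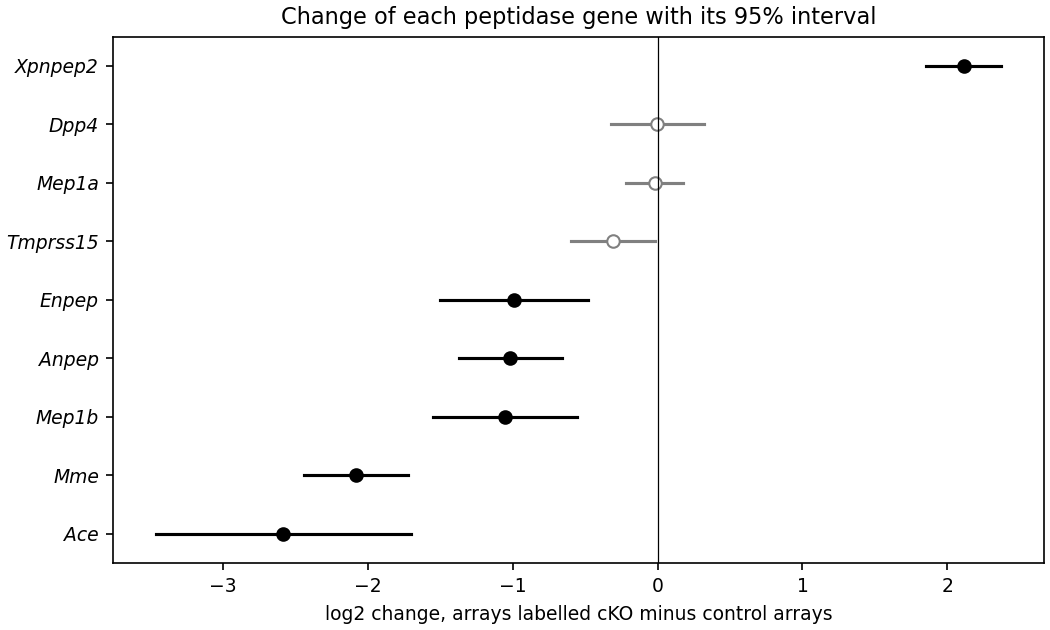
Log2 change of the 9 peptidase genes (x axis, arrays labelled cKO minus control arrays) with the 95% interval of limma, n = 3 per group. Filled black points passed at an adjusted p under 0.05 and open grey points did not: Xpnpep2 lies at 2.11, Dpp4 and Mep1a lie within 0.02 of 0, and the other 6 lie below 0, from −0.31 (Tmprss15, open) to −2.58 (Ace).

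The meprin subunits also parted. Meprins are zinc endopeptidases of the astacin family, built from alpha subunits (Mep1a) and beta subunits (Mep1b). The beta subunit spans the membrane, and the alpha subunit is held there by it or shed. Mep1a was at 12.25, 12.19 and 12.24 on the control arrays and at 12.31, 12.09 and 12.22 on the arrays labelled cKO. These 6 values are close to each other, and the change was −0.02 ± 0.0819 (adjusted p = 0.91; 95% interval −0.22 to 0.18). Mep1b was at 11.05, 11.00 and 11.49 on the control arrays and at 10.50, 9.85 and 10.03 on the arrays labelled cKO. Its groups did not overlap, with cKO 1 closest to the controls. The change was −1.05 ± 0.206 (2.08-fold lower, adjusted p = 0.0208), a call that was kept without cKO 1 or cKO 2 and lost without any 1 control or cKO 3 (adjusted p up to 0.0723). Within arrays Mep1a minus Mep1b was 0.75 to 1.20 on the controls and 1.81 to 2.24 on the arrays labelled cKO. This is a difference of 1.03 ± 0.201 (exact permutation test, two-sided, p = 0.10, adjusted p = 0.20), again with no overlap and at the smallest p that 20 splits allow.

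**Figure D3:**
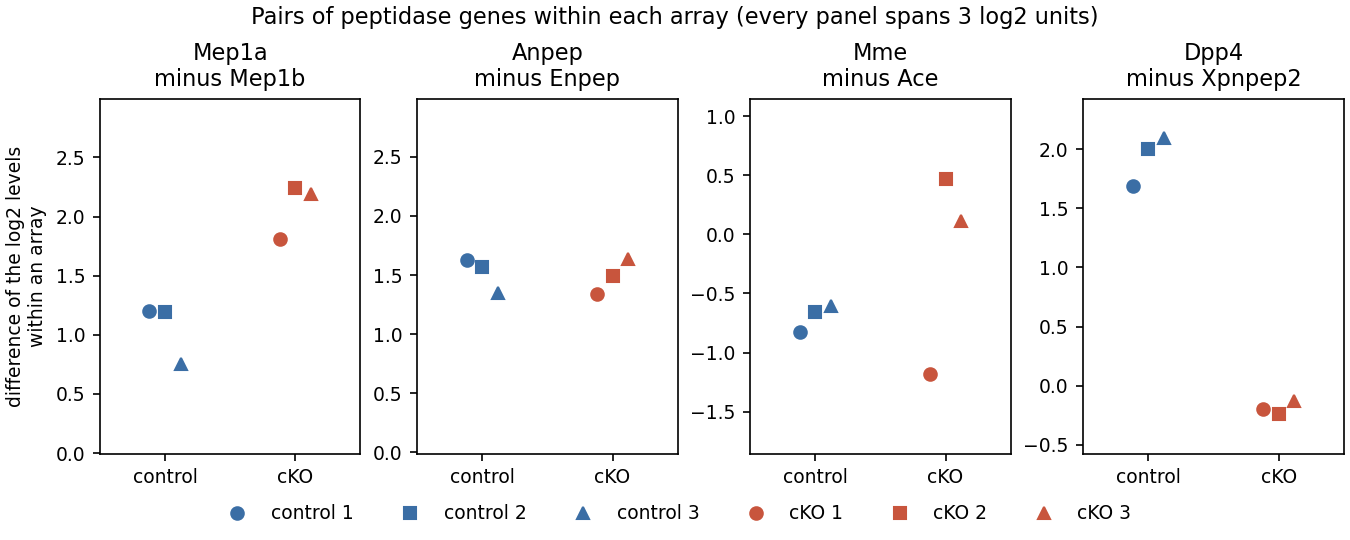
Difference between the log2 levels of 2 peptidase genes within each array (y axis) for 4 pairs, 1 symbol per array, every panel spanning 3 log2 units. The groups are apart for Mep1a minus Mep1b (0.75 to 1.20 against 1.81 to 2.24) and for Dpp4 minus Xpnpep2, and overlap for the other pairs.

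Tmprss15 encodes enteropeptidase, the serine protease that activates trypsinogen and is typical of the duodenum. Its levels of 7.14, 7.02 and 6.76 on the control arrays and 6.76, 6.54 and 6.70 on the arrays labelled cKO were all below the median of all probe sets on their array (7.73 to 7.84). Control 3 and cKO 1 had the same value, so the groups touched. The change was −0.31 ± 0.12 and did not pass (adjusted p = 0.165, unadjusted p = 0.0407), nor did it pass under the 15 alternatives that kept the gene. Detection calls were not used here, so it is not known whether this low signal lies above background. Near background a change would be compressed. Among the pancreatic acinar genes, which include the zymogens that enteropeptidase sets in motion, 0 of 8 passed, and their mean level differed more between controls (7.73 to 10.60) than between arrays labelled cKO (9.30 to 10.34).

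Among the arrays labelled cKO, cKO 1 was highest for 8 of 9 (all but Mme), where this array was highest for 37.4% of all genes. cKO 2 was lowest for 7 of 9 (all but Mme and Xpnpep2), against 33.4% of all genes. Among the controls, control 3 was highest for 6 of 9, namely Mme, Anpep, Enpep, Dpp4, Ace and Mep1b, against 36.2% of all genes, while the lowest control was control 1 for 4 genes, control 2 for 4 and control 3 for 1. The changes of the 5 genes that fell were each smaller without control 3 (−2.55 for Ace to −0.88 for Enpep) and without cKO 2 (−2.19 for Ace to −0.86 for Enpep). That follows from their values. Control 3 was the highest control for each of the 5, and cKO 2 lay below the mean of its group for each. The mean levels of hepatocyte and erythroid genes were also highest on cKO 2, and control 3 came next for both lists. With the mean level of these genes as a covariate the same 5 peptidase genes fell and Xpnpep2 rose.

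Other genes of protein digestion were counted in 4 lists written with earlier results of these arrays known. Among 17 other surface peptidases and proteases 3 rose, 1 fell and 13 did not pass, with a median change of 0.08. The rises were 2 without any 1 array but cKO 1, and 2 without control 3 and cKO 2 together. Prss8, prostasin, a membrane-anchored serine protease, fell by 0.86 (SE 0.0891, adjusted p = 0.00203). Ece1, endothelin-converting enzyme 1 and a relative of neprilysin, rose by 0.75 (SE 0.0782, adjusted p = 0.00204), against the direction of Mme. Cpd, carboxypeptidase D, and Tmprss2, a transmembrane serine protease, rose by 0.66 and 0.53. Naaladl1 and Dpep1, a peptidase and a dipeptidase of the brush border, changed by 0.13 ± 0.222 and −0.04 ± 0.291 and did not pass (adjusted p = 0.772 and 0.951).

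Inside the cell, where absorbed dipeptides and tripeptides are finished, 5 of 20 peptidase genes fell, 1 rose and 14 did not pass, with a median of −0.07. Xpnpep1 encodes the cytosolic aminopeptidase P and moved opposite to its membrane counterpart Xpnpep2. It was at 11.67, 11.89 and 11.94 on the control arrays and at 10.90, 10.70 and 10.80 on the arrays labelled cKO, with no overlap. The change was −1.03 ± 0.101 (adjusted p = 0.00163). Dpp7, a lysosomal dipeptidyl peptidase, changed by −0.72 ± 0.0824, Tpp1, a lysosomal tripeptidyl peptidase, by −0.46 ± 0.0854 and Rnpep, aminopeptidase B, by −0.37 ± 0.0724. Cndp2, a cytosolic dipeptidase named after its values were seen, was the other that fell (−0.58), and Thop1, thimet oligopeptidase, also named so, was the one that rose (0.32). The falls in this list were 2 without control 3 or cKO 3 and 3 without control 1, control 2 or cKO 2. The rise was lost without any 1 array but cKO 1.

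The carriers that take up the products were mostly lower. Of 14 genes of peptide and amino acid uptake 10 fell, 1 rose and 3 did not pass, with a median change of −0.70. Slc7a8 and Slc7a7, light chains of basolateral amino acid exchangers, fell by 0.90 (SE 0.095) and 0.89 (SE 0.119), and Slc3a2, their heavy chain, by 0.63 (SE 0.0902). Slc1a1, a glutamate and aspartate transporter, rose by 1.63 (SE 0.229, adjusted p = 0.00619). Slc15a1, the proton-coupled transporter PEPT1 for dipeptides and tripeptides, was at 11.41, 11.39 and 11.61 on the control arrays and at 11.21, 10.79 and 10.76 on the arrays labelled cKO. Its groups did not overlap, and its change of −0.55 ± 0.142 did not pass (adjusted p = 0.0536). Slc6a19, the main neutral amino acid transporter of the brush border, changed by −0.74 ± 0.231 and did not pass either (adjusted p = 0.0944). Without control 3 and cKO 2 the count of falls was 4, with 1 array left out it was 7 to 12, and it was 7 or 8 in each case but that of cKO 1.

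Among 12 genes for peptides that these enzymes cut and for protease inhibitors and their like 7 fell and 0 rose, with a median change of −0.50. The substance P precursor gene Tac1, whose product neprilysin degrades, fell by 1.76 (SE 0.178, adjusted p = 0.0018). Gip, an incretin cleaved by dipeptidyl peptidase 4, fell by 1.93 (SE 0.296), Cck, cholecystokinin, by 1.20 (SE 0.153) and Pyy, peptide YY, by 0.94 (SE 0.114). For these genes too, fewer cells that make the peptide and less RNA in each such cell cannot be told apart. Agt, the angiotensinogen gene, was at 7.53 to 9.56 on the control arrays and at 8.06, 11.98 and 8.06 on the arrays labelled cKO, high on cKO 2 alone, where the hepatocyte genes were also highest, and did not pass (adjusted p = 0.649). Without any 1 control array the count of falls was 4.

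**Figure D4:**
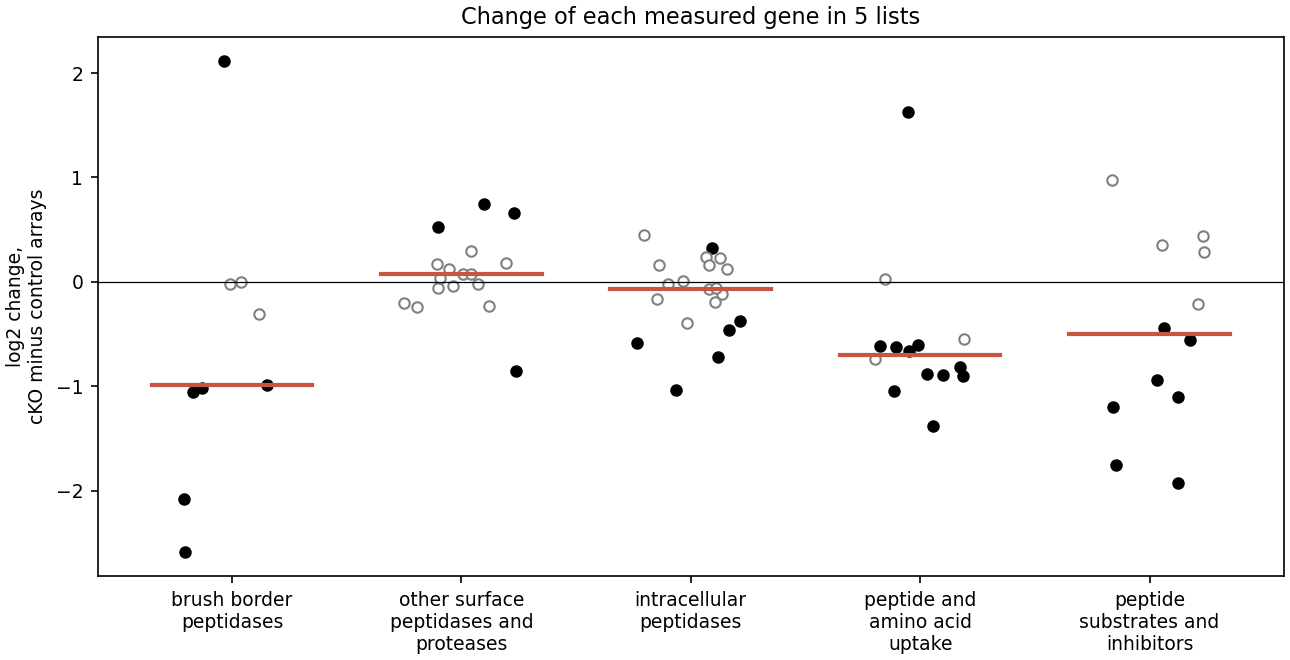
Log2 change (y axis, arrays labelled cKO minus control arrays, n = 3 per group) of every measured gene in 5 lists, with filled points for an adjusted p under 0.05, open points for the rest and a red line at the list median. The brush border peptidases and the uptake genes have medians of −0.99 and −0.70 with 1 riser each, and the 2 lists of other peptidases have medians near 0 (0.08 and −0.07).

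For each of the 6 peptidase genes that passed, the genes most like it over the 6 arrays were found by the mean absolute difference between levels centred on each gene's own mean. Mme was closest to Cda (mean absolute difference 0.0722 log2 units), which encodes cytidine deaminase, then to Akr1c19 and Lmo1. Anpep was closest to Npl (0.0178), then to Tm6sf2 and Rab11fip5, and Ace to H2-Bl (0.18), Btnl2 and Zg16. Enpep was closest to Snx8 (0.0456) and Mep1b to Cgref1 (0.0467), and Plekhg6 and Cgref1 were among the 3 closest genes of both. Xpnpep2 was closest to Klhl13 (0.0289), Mpst and Slc17a9, which rose by 2.11, 2.14 and 2.03. All these genes were picked for likeness over the same 6 arrays, so similar changes follow from the choice.

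Genes of other cell types in the preparation gave these values beside the results. Of 12 pericyte and mesenchyme genes 0 passed in limma and 7 had an unadjusted p under 0.05, against 5294 of all 19938 genes. Of these 7, Pdgfra was lower on the arrays labelled cKO (−0.55 ± 0.184) and the others were higher. The mean level of the list was 7.73 to 8.11 on the control arrays and 8.84, 8.68 and 8.04 on arrays 1 to 3 labelled cKO. Dcn, decorin, and Acta2, smooth muscle actin, changed by 1.85 ± 0.489 and 1.73 ± 0.459 (adjusted p = 0.058 and 0.0588). Of 9 immune genes 1 rose (Itgam) and 1 fell (Csf1r), and the mean level was highest on cKO 2, at 9.09 against 7.54 to 8.10. Mme, Anpep, Enpep and Dpp4 are also made by stromal or immune cells, and the part of such cells in their levels was not tested.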

How the data were processed

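The authors hybridised 1 Affymetrix Mouse Gene 1.0 array per sample and processed the arrays with dChip, per the series text; for its version and settings the sources used here give nothing. The deposited values were taken as log2 levels from their range (0 to 14.25), since no label states the base. Of 35512 probe sets 21789 have 1 gene, which left 19938 genes after keeping the probe set with the highest mean. No dim gene was left out. Groups came from the source names.

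The arrays were compared with limma 3.58.1 in R 4.3.3 (lmFit and eBayes, no covariate), with p-values adjusted by Benjamini-Hochberg over all genes and a threshold of 0.05. The procedure was also run on simulated data with independent noise. Those data held no effects shared by the genes of an array, so the run does not cover such effects here. Pairs of genes were compared by exact permutation over arrays. Named were all 9 genes, up to 4 genes per list by adjusted p, and the 3 genes most alike each gene that passed; other names are given for context, after their values were seen. The genes and lists were chosen with earlier results of these data known, so list counts carry no set test. Some listed genes were not analysed here. Alternatives covered normalization, centring, a pseudocount, dim genes, the variance model, array weights, a block, probe sets, a covariate and arrays left out. The number of arrays limits the precision.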

Additional observations from a re-analysis of the deposited data

How the results depend on the processing

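Ace, Mme, Anpep and Xpnpep2 kept direction and call under all 17 alternatives. The labels do not say whether arrays with the same replicate number belong together. The deviations of same-numbered arrays correlated at −0.015, −0.425 and −0.184, which cannot settle this. With the number as a replicate block the falls were 3 of 9 peptidases, 2 of 20 intracellular peptidases, 6 of 14 uptake genes and 4 of 12 substrate and inhibitor genes. There were then 0 rises among intracellular peptidases, with 622 higher and 827 lower over all genes. The calls of Enpep, Mep1b and Gata4 were lost with this block (adjusted p = 0.0861, 0.0566 and 0.0521 in limma). Without control 3 and cKO 2 the falls were 3, 2 and 4 in the first 3 of these lists and the rises among intracellular peptidases 0. That last count was also 0 after quantile normalization, after centring of array medians, with array weights and with the covariate, and 2 without genes below the median level; with array weights 1 substrate or inhibitor gene rose. The Dpp4 change was 0.04 after quantile normalization and 0.16 without control 3 and cKO 2, and the Mep1a change was 0.00 after quantile normalization or with array weights and 0.05 without those 2 arrays; neither passed under any alternative, and the cause was not tested. Leaving out 1 array gave 3 to 5 falls among the 9 peptidases, 2 to 5 falls and 0 to 1 rises among intracellular peptidases, 7 to 12 falls among uptake genes, 4 to 6 among substrates and inhibitors, and a range of −0.10 to 0.10 for Dpp4, −0.07 to 0.04 for Mep1a and −0.11 to 0.05 for Anpep minus Enpep. Tmprss15 was not tested under both limits on dim genes.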
